A study of Mus musculus with 6 samples.

Results

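The 10 genes of protein tyrosine phosphatases that leukocytes use, Ptprj, Ptprc, Ptpre, Ptpro, Ptpra, Ptpn1, Ptpn2, Ptpn6, Ptpn11 and Ptpn22, were followed through 6 lists of ATF3 ChIP-seq peaks. A peak belonged to a gene where the authors' annotation gave it that gene name, by the nearest transcriptional start site. By this rule 21 of 16759 peaks belonged to 3 of the 10 genes, Ptprj, Ptpn1 and Ptprc, and 7 genes had none. The 21 peaks, 14 standard and 7 KOIN-corrected, lay at 7 sites. ATF3 was precipitated from bone marrow-derived macrophages (BMDMs), primary mouse macrophages grown from marrow with the growth factor M-CSF at 40 ng/ml. The ATF3-deficient (Atf3 -/-, KO) and the WT (Atf3 +/+) cells were both of C57BL/6 background, the WT mice being 6 to 8 weeks old and matched to the KO mice by age and sex. Cells of each genotype received 2 mg/ml HDL for 6 h and then 100 nM CpG for 4 h (HDL + CpG), HDL alone for 6 h, or medium only (unstimulated). HDL carries cholesterol away from cells, and CpG DNA activates macrophages through Toll-like receptor 9.

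The protocol names 3 biological replicates, which the authors joined before alignment, so each condition has 1 pooled KO and 1 pooled WT library. No spread between mice or cultures can be taken from the lists, and every test below compares reads of 2 libraries, not replicated genotypes. A standard peak was called on the WT library alone. A KOIN-corrected peak was called against the KO library and had to hold at least 2 times as many WT as KO tags. That is a KO/WT of at most 0.5. By the paper's methods, WT peaks that intersected peaks of the KO library, called against WT, were also excluded. The lists were thus chosen on the same reads that the tests of KO against WT below use, and these tests do not allow for that choice. Tags are reads in the peak per 10000000 reads of the library. The KO libraries hold 47504605 reads (HDL + CpG), 66061648 (HDL) and 75534584 (unstimulated), and the WT libraries 49467421, 37930363 and 37137377 in the same order of conditions. The antibody still gave tags in KO cells. At the Atf3 promoter itself, KO/WT was 0.507, 0.553 and 0.579 (HDL + CpG, HDL, unstimulated), and no KOIN-corrected peak was present there. Of the 11 standard peaks assigned to Atf3 over the conditions, 8 had an overlapping KOIN-corrected peak. Fewer KO than WT reads were called at all 11, the promoter included, and the shares over all standard peaks are given below. Peak lists hold no expression values, so the macrophage label was not checked against marker genes.

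Protein tyrosine phosphatases remove phosphate from tyrosine residues and so set the signal of tyrosine kinases. The receptor types span the membrane. Ptprc encodes CD45, the abundant leukocyte surface phosphatase that acts on Src-family kinases, and Ptprj encodes CD148, which acts on the same kinases in macrophages. The non-receptor types act inside the cell. Ptpn1 encodes PTP1B, which sits on the endoplasmic reticulum and dephosphorylates the insulin receptor and Janus kinases. ATF3 is a basic leucine zipper protein of the ATF/CREB family, and it recognises AP-1 and CRE elements with partners of its kind.

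The sequences at the sites differed in kind. They are given from the NCBIM37 assembly, which is mm9, on the plus strand, around the centre of the highest-scoring standard peak of each site, and sites are named by their distance from the start site of the gene. Capitals mark matches to the AP-1 sequence (TGAGTCA or TGACTCA), the CRE (TGACGTCA) or the composite element of C/EBP and ATF factors (TGATGCAA), searched on both strands, or runs of at least 3 copies of the tetranucleotide that the authors' repeat annotation names. The intron 1 site of Ptprj was the richest in such matches (chr2:90382928-90383129).
Ptprj +37.8 kb: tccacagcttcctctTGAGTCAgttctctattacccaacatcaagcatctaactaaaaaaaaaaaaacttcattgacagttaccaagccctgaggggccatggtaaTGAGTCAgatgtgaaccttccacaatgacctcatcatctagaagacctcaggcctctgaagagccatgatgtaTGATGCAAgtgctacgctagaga
It held 2 copies of TGAGTCA, 91 bp apart, and 1 TGATGCAA further along. A second site in the same intron had 1 composite match on the other strand and a stretch of A (chr2:90419455-90419629).
Ptprj +1.2 kb: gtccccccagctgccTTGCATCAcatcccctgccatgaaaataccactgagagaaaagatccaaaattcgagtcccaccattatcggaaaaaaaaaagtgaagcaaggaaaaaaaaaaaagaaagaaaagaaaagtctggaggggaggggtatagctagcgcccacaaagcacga
Both distal sites upstream of Ptpn1 were centred on simple repeats, shown because the repeat fills much of the window (chr2:167720863-167721013 and chr2:167745041-167745191).
Ptpn1 -36.9 kb: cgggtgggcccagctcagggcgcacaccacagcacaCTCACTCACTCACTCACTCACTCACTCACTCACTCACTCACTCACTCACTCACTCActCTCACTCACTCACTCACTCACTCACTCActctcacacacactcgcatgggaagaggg
Ptpn1 -12.6 kb: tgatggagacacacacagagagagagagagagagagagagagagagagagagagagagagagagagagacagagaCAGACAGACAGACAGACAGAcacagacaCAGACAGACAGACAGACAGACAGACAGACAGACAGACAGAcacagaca
The first of these repeats had runs of 14 and 7 copies of CTCA, and the second runs of 5, 10 and 7 copies of CAGA, the last outside the window. The first also held a TGACTCA, 418 bp from the centre of its HDL + CpG peak and outside its unstimulated peak (chr2:167720502-167720538).
Ptpn1 -36.9 kb, AP-1 match: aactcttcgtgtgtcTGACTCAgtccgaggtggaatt
The remaining 2 sites with a KOIN-corrected peak held no match in their peaks and no repeat at their centres, and are shown for comparison (chr2:167750605-167750755 and chr1:140033118-140033268).
Ptpn1 -7.1 kb: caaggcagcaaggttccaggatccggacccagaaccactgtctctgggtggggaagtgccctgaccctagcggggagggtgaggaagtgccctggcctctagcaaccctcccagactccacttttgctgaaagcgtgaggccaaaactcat
Ptprc +38.5 kb: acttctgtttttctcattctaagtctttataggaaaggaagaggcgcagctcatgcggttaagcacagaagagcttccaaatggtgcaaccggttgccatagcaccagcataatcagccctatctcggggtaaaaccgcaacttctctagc

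No site lay at a promoter. Of the 7 sites, 4 were in introns and 3 in intergenic sequence, and none overlapped an exon of the GENCODE annotation. All 3 sites of Ptprj were in its first intron, the one of Ptprc was in intron 2 of 29, and all 3 of Ptpn1 were upstream of the gene. The gene nearest to the Ptpn1 -36.9 kb site was Gm14319, 32.3 kb away, while the start of Ptpn1 was 36.7 kb from the edge of the site. Of all 22238 protein-coding genes, 18.2% had a standard peak in at least 1 condition and 12.1% a KOIN-corrected one, beside 3 and 3 of the 10 phosphatases.

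**Figure D1:**
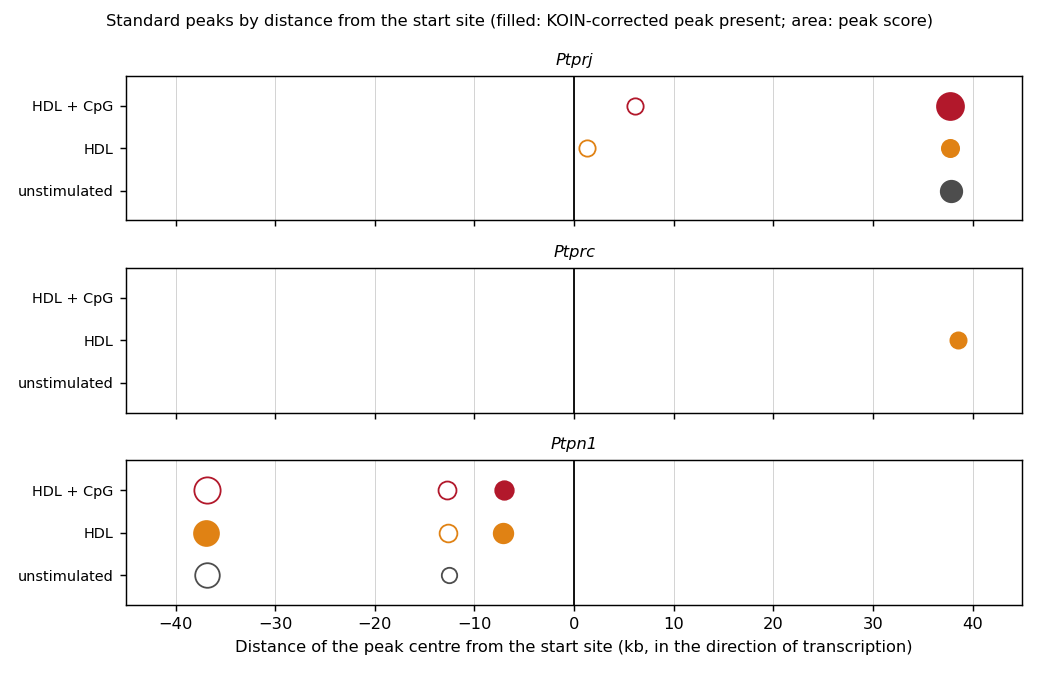
Standard peaks of Ptprj, Ptprc and Ptpn1 by the distance of the peak centre from the start site (kb, in the direction of transcription), with the 3 conditions as rows and the area of a circle proportional to the peak score. Filled circles have an overlapping KOIN-corrected peak, which the Ptprj site at +37.8 kb has in each of the 3 conditions.

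The intron 1 site of Ptprj at +37.8 kb was the one phosphatase site with a KOIN-corrected peak in all 3 conditions. Over all standard peaks, 29.7% had such a peak with HDL + CpG, 54.9% with HDL alone and 20.7% in unstimulated cells. With HDL + CpG (chr2:90382563-90383534) it had 5.47 tags in KO and 21.83 in WT cells, from 26 and 108 reads. With HDL (chr2:90382739-90383456) it had 3.78 tags in KO and 12.39 in WT cells, from 25 and 47 reads. In unstimulated cells (chr2:90382683-90383286) it had 5.43 tags in KO and 12.66 in WT cells, from 41 and 47 reads. The WT library was the higher in each condition, and the KO/WT ratio was 0.251 with HDL + CpG, 0.305 with HDL alone and 0.429 in unstimulated cells, with exact 95% intervals of 0.157 to 0.388, 0.180 to 0.506 and 0.275 to 0.666. Fewer KO than WT reads were called in each of the 3 conditions (adjusted p = 1.76e-10, 3.54e-06 and 0.000359, two-sided exact binomial test with the Benjamini-Hochberg method over all standard peaks of the condition). Over all standard peaks this call was made at 40.9% with HDL + CpG, 79.5% with HDL alone and 56.2% in unstimulated cells. The Ptprj peaks had already been chosen on these reads, by WT peak calling and by the KOIN rule, so the p-values are no separate support. The unstimulated call at Ptprj was lost when the expected share was scaled to the standard peaks that KOIN removed (ratio 0.641, adjusted p = 0.108, exact binomial test).

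The rank of this Ptprj peak differed between the lists. With HDL + CpG its score of 159.27 was the 3rd highest of 1232 KOIN-corrected peaks, while its score of 139.18 was the 415th of 3790 standard peaks. In unstimulated cells it was the 35th of 595 KOIN-corrected and the 750th of 2779 standard peaks. With HDL it was in the lower part of the KOIN-corrected list, 1969th of 3044, and 2781st of 5319 in the standard list. Per kb of peak, WT tags were between 17.3 and 22.5 in the 3 conditions. The peak centre, taken as the midpoint of the called interval, differed between conditions. The interval was 971 bp wide with HDL + CpG, 717 bp with HDL and 603 bp in unstimulated cells. All marked matches lay inside each of these peaks, and a shift of binding between them was not tested. The composite match lay 13 bp from the centre with HDL, and the second TGAGTCA lay 11 bp from it with HDL + CpG. In unstimulated cells the first TGAGTCA was the closest, at 38 bp.

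The other sites in intron 1 of Ptprj were each found in 1 condition and had no KOIN-corrected peak. At +6.1 kb, found with HDL + CpG (chr2:90414261-90415078), there were 8.63 tags in KO and 9.10 in WT cells, a KO/WT of 0.949 (0.606 to 1.48). No difference in reads was called (adjusted p = 0.898, exact binomial test). At +1.2 kb, found with HDL (chr2:90419119-90419989), KO cells had 5.75 and WT cells 12.92 tags, a KO/WT of 0.445 (0.284 to 0.694). This peak had fewer KO reads (adjusted p = 0.000409, exact binomial test) and a ratio under 0.5, yet was not in the KOIN-corrected list, and its call was lost under the same scaling (adjusted p = 0.309, exact binomial test).

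Ptprc had 1 site, 38.5 kb into the gene, and it was found with HDL alone (chr1:140032909-140033477). There were 2.88 tags in KO and 10.28 in WT cells, from 19 and 39 reads, a KO/WT of 0.280 (0.153 to 0.496). Fewer KO reads were called (adjusted p = 1.08e-05, exact binomial test), and a KOIN-corrected peak was present. The score was 50.38 in both lists, 3520th of 5319 standard and 1812th of 3044 KOIN-corrected peaks. That no peak of Ptprc was listed in the other conditions says only that none passed the peak caller there. The nearest listed standard peak was then 147.8 kb from the Ptprc start site with HDL + CpG and 168.3 kb from it in unstimulated cells, and both were assigned to Atp6v1g3.

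**Figure D2:**
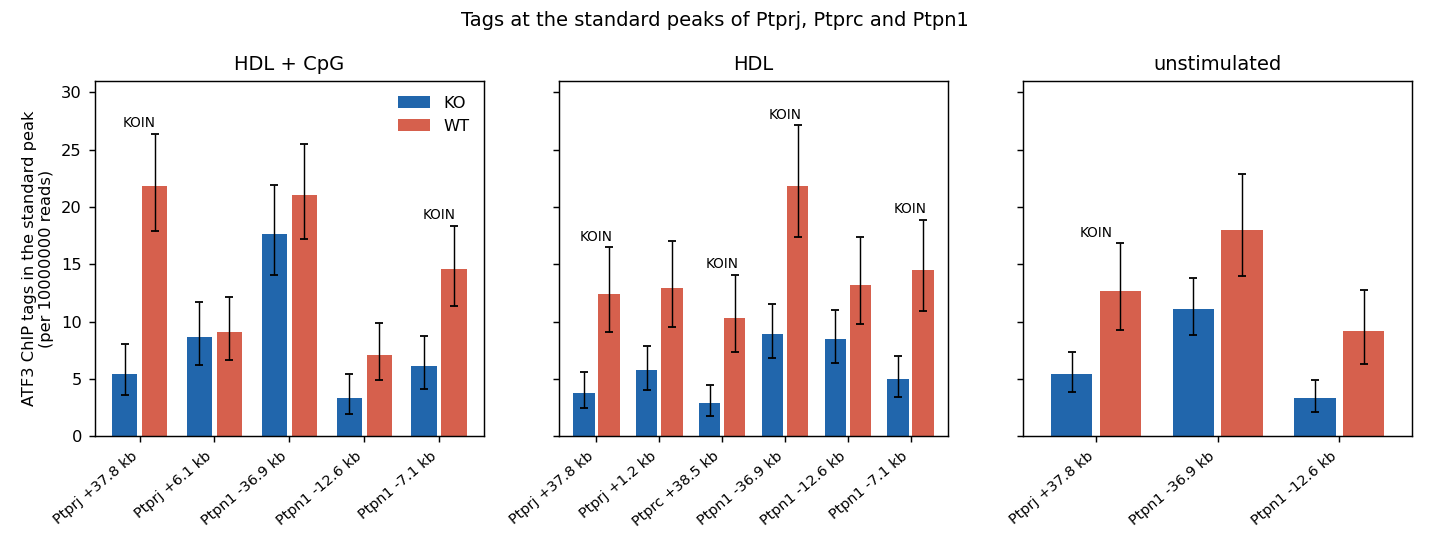
ATF3 ChIP tags per 10000000 reads in each standard peak of the 3 genes, by condition, with KO bars left of WT bars. Lines are exact 95% Poisson intervals of the reads of 1 pooled library, and KOIN stands above peaks that are also in the KOIN-corrected list. WT bars are above KO bars at each of the 14 peaks, by the least at Ptprj +6.1 kb (8.63 KO and 9.10 WT tags).

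Upstream of Ptpn1, the site nearest to the gene, at -7.1 kb, had a KOIN-corrected peak in both stimulated conditions and no peak in unstimulated cells. The latter says only that none passed the peak caller there. With HDL + CpG (chr2:167750398-167751267) KO cells had 6.10 and WT cells 14.56 tags, from 29 and 72 reads. With HDL (chr2:167750330-167751030) KO cells had 5.00 and WT cells 14.50 tags, from 33 and 55 reads. The ratios were close to each other, 0.419 (0.263 to 0.654) and 0.345 (0.217 to 0.540), and fewer KO reads were called in both conditions (adjusted p = 0.000217 and 4.16e-06, exact binomial test). The ratio with HDL + CpG was 1.22 times that with HDL, which did not pass the test of the difference (95% interval 0.662 to 2.24, adjusted p = 0.697, exact conditional test).

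The site at -36.9 kb of Ptpn1, on the CTCA repeat, was among the strongest phosphatase peaks in WT cells and was listed in all 3 conditions. With HDL + CpG (chr2:167720383-167721494) it had 17.68 tags in KO and 21.02 in WT cells, from 84 and 104 reads. With HDL (chr2:167720383-167721368) it had 8.93 tags in KO and 21.88 in WT cells, from 59 and 83 reads. In unstimulated cells (chr2:167720521-167721470) it had 11.12 tags in KO and 18.04 in WT cells, from 84 and 67 reads. WT tags were thus between 18.04 and 21.88 in the 3 conditions, while KO tags were between 8.93 and 17.68. KO/WT was 0.841 (0.623 to 1.13) with HDL + CpG, 0.408 (0.287 to 0.577) with HDL and 0.616 (0.442 to 0.863) in unstimulated cells. Fewer KO reads were called with HDL (adjusted p = 5.78e-07) and in unstimulated cells (adjusted p = 0.00947) but not with HDL + CpG (adjusted p = 0.372, all by the exact binomial test). Both calls were lost under the scaling to removed standard peaks (adjusted p = 0.0825 and 0.764, same exact test). Only with HDL was there a KOIN-corrected peak. The repeat was annotated at the peak centre with HDL + CpG and in unstimulated cells, while the centre of the HDL peak lay just outside it.

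The site at -12.6 kb of Ptpn1, on the CAGA repeat, was listed in all 3 conditions and never in a KOIN-corrected list. With HDL + CpG (chr2:167744820-167745412) KO cells had 3.37 and WT cells 7.08 tags, from 16 and 35 reads. With HDL (chr2:167744732-167745702) KO cells had 8.48 and WT cells 13.18 tags, from 56 and 50 reads. In unstimulated cells (chr2:167744881-167745568) KO cells had 3.31 and WT cells 9.16 tags, from 25 and 34 reads. Fewer KO reads were called in each condition, with a KO/WT of 0.476 (0.246 to 0.883), 0.643 (0.431 to 0.961) and 0.362 (0.207 to 0.624) and an adjusted p of 0.0390, 0.0334 and 0.000489 (exact binomial test). The ratios with HDL + CpG and in unstimulated cells met the limit of 0.5 without a KOIN-corrected peak. All 3 calls were lost when the expected share was scaled to the standard peaks that KOIN removed (adjusted p = 0.0774, 0.788 and 0.0736, exact binomial test), and the HDL ratio was then 1.09.

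**Figure D3:**
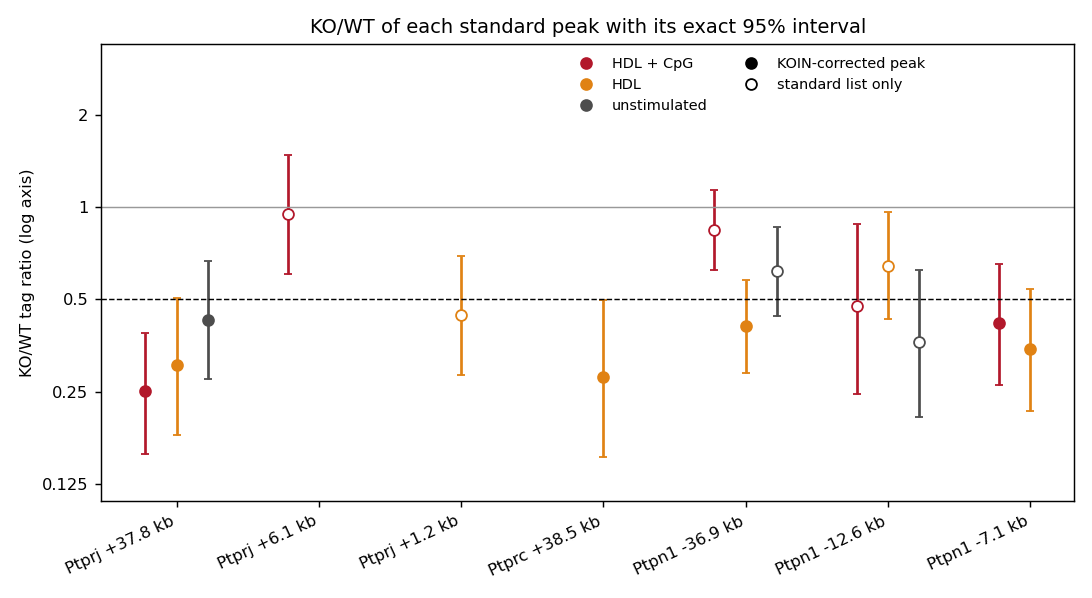
KO/WT tag ratio of each standard peak of the 3 genes on a log axis, with its exact 95% interval, coloured by condition. Filled points also have a KOIN-corrected peak, the dashed line is the ratio of 0.5 and the grey line equal tags. The highest ratios are 0.949 at Ptprj +6.1 kb and 0.841 at Ptpn1 -36.9 kb, both with HDL + CpG.

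Between conditions, 10 pairs of overlapping phosphatase peaks could be compared by an exact conditional test of KO/WT, adjusted over all overlapping pairs. The test was chosen after values had been seen. Of all pairs, 35.8% differed between HDL + CpG and HDL, 27.6% between HDL + CpG and unstimulated cells, and 21.7% between HDL and unstimulated cells. Of the 10 phosphatase pairs 1 differed, Ptpn1 -36.9 kb, whose KO/WT with HDL + CpG was 2.06 times that with HDL (1.33 to 3.20, adjusted p = 0.00585, exact conditional test). Over all 2394 pairs the same ratio had a median of 1.41. With each condition scaled by the median KO/WT of its standard peaks that KOIN removed, the ratio at Ptpn1 -36.9 kb was 1.36 and no longer called (adjusted p = 0.299, same exact test). The remaining 9 pairs had an adjusted p of 0.231 to 0.761 by the same exact test. At Ptprj +37.8 kb the KO/WT with HDL + CpG was 0.821 times that with HDL (0.430 to 1.57). It was 0.584 times that in unstimulated cells (0.321 to 1.06). Under the same scaling, added after the data were seen, the latter ratio was 0.438 and was called (adjusted p = 0.0414, same exact test). The scaling thus changed which pair was called, and the share of all pairs called under it was not taken. These conditions are single pooled libraries, so condition and library cannot be told apart.

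The phosphatase peaks were set beside all standard peaks of each condition. A KOIN-corrected peak overlapped 2 of 5 phosphatase peaks with HDL + CpG, where it did so for 29.7% of all standard peaks. The counts were 4 of 6 with HDL (54.9% of all) and 1 of 3 in unstimulated cells (20.7% of all). Fewer KO reads were called at 3 of 5, 6 of 6 and 3 of 3 phosphatase peaks in the same order, beside the 40.9%, 79.5% and 56.2% of all standard peaks given above. More KO reads were called at 0 of the 14, beside 2.85%, 0.902% and 0.9% of all. A KO/WT of at most 0.5 was found at 3 of 5, 5 of 6 and 2 of 3, beside 34.7%, 66.6% and 31.3%. The median KO/WT of the phosphatase peaks was 0.476 with HDL + CpG, 0.376 with HDL alone and 0.429 in unstimulated cells, against 0.704, 0.416 and 0.602 over all standard peaks. With 3 to 6 peaks per condition, which share 7 sites, these are descriptions and no difference from other genes was tested.

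**Figure D4:**
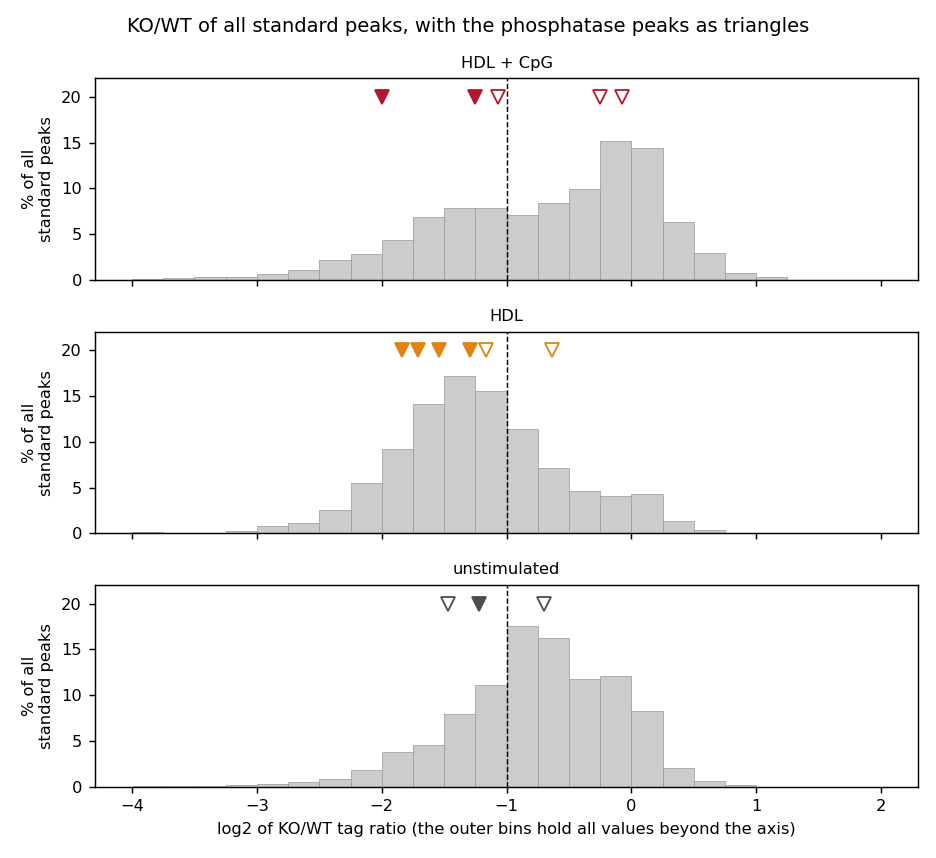
Distribution of the log2 KO/WT tag ratio over all standard peaks of each condition, as the percentage of peaks per bin, with the phosphatase peaks as triangles (filled where a KOIN-corrected peak is present) and the ratio of 0.5 as a dashed line. The filled triangles all lie left of the line, as the rule for KOIN-corrected peaks requires, and 3 open ones lie there too.

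Standard peaks that KOIN removed also had fewer KO than WT tags, their median KO/WT being 0.893 (HDL + CpG), 0.589 (HDL) and 0.669 (unstimulated). These peaks were removed on the same KO and WT reads, so they are no independent measure of equal binding. When their medians were taken as equal binding, fewer KO reads were called at 5 of the 14 phosphatase peaks in place of 12. The 5 were Ptprj +37.8 kb and Ptpn1 -7.1 kb with HDL + CpG and with HDL, and Ptprc +38.5 kb with HDL. No phosphatase peak of unstimulated cells was among them, where 3 had been called. Of all standard peaks, 34.2%, 29.5% and 16.9% were called in this way (HDL + CpG, HDL, unstimulated).

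Sequence matches and repeats were also counted. Within 100 bp of a peak centre, 2 of the 7 sites held a match to one of the sequences searched, Ptprj +37.8 kb and Ptprj +1.2 kb. Counted per standard peak, these were 1 of 5 with HDL + CpG, 2 of 6 with HDL and 1 of 3 in unstimulated cells. Of all KOIN-corrected peaks, 41.0% held one with HDL + CpG, 25.6% with HDL alone and 30.4% in unstimulated cells, and of all standard peaks 18.5%, 19.7% and 11.4%. At least 2 AP-1 sequences in 1 peak, as at Ptprj +37.8 kb, occurred in 14.9%, 8.94% and 11.6% of KOIN-corrected peaks, and in 7.41%, 6.73% and 4.61% of standard peaks. Centres on a satellite, simple or low-complexity repeat were found at 23.3%, 24.1% and 30.6% of standard peaks. The distal Ptpn1 sites had such centres, except for the -36.9 kb peak with HDL, and so did Ptprj +1.2 kb. With HDL + CpG, 2.60% of standard peaks on such repeats had a KOIN-corrected peak, against 38.0% of those off them. With HDL the shares were 54.8% and 54.9%, and in unstimulated cells 12.8% and 24.1%. Whether the repeat plays a part in the values at the Ptpn1 sites was not tested.

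The 7 phosphatase genes without a peak were Ptpn6 and Ptpn11, which encode the SH2-domain phosphatases recruited by inhibitory receptors and growth factor receptors, Ptpn2 and Ptpn22, which restrain cytokine and antigen receptor signalling in lymphocytes, and the receptor types Ptpra, Ptpre and Ptpro. Ptpre was a special case of the assignment rule. A peak in intron 3 of 20 of its transcript (chr7:142835839-142836813), 106.8 kb from the Ptpre start site, was assigned to the nearer 5830432E09Rik. With HDL + CpG it had 2.95 tags in KO and 12.74 in WT cells, a KO/WT of 0.231 (upper 95% bound 0.418, adjusted p = 5.88e-07, exact binomial test), and a KOIN-corrected peak was present. A peak in intron 6 with HDL (chr7:142846821-142847283) had 2.88 tags in KO and 10.55 in WT cells. Its KO/WT was 0.273 (0.149 to 0.482, adjusted p = 6.83e-06, exact binomial test), yet no KOIN-corrected peak was present. Within the other 6 genes no standard peak lay in any condition. Their nearest peaks were between 47.8 kb from the start site, for Ptpn6 in unstimulated cells, and 2207.5 kb from it, for Ptpro in unstimulated cells.

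Other genes of the pathway are given as counts, beside the 18.2% and 12.1% of all protein-coding genes with a standard and with a KOIN-corrected peak, and no difference from other genes was tested. Of 28 other classical tyrosine phosphatases, 7 had a standard peak and 2 a KOIN-corrected one, Ptpn5 and Ptprd. A KOIN-corrected peak overlapped 2 of 7 of their standard peaks with HDL + CpG (29.7% of all standard peaks), 1 of 6 with HDL (54.9% of all) and 0 of 6 in unstimulated cells (20.7% of all). The Ptpn5 peak, in intron 2 of 13, had 3.18 tags in KO and 12.65 in WT cells with HDL (KO/WT 0.251, 0.143 to 0.428). The Ptprd peaks, found with HDL + CpG, lay 265.8 and 402.2 kb from the start site (KO/WT 0.426 and 0.481). Of 10 MAP kinase phosphatases, which dephosphorylate threonine and tyrosine of MAP kinases, 6 had a standard peak and the same number a KOIN-corrected one. It overlapped 4 of 5 standard peaks with HDL + CpG (29.7% of all) and 8 of 8 with HDL (54.9% of all). In unstimulated cells these genes had no standard peak, which says only that none passed the peak caller. That list held 2779 standard peaks, against 5319 with HDL. Dusp6, which acts on ERK kinases, had 6.21 tags in KO and 21.88 in WT cells with HDL at 12.2 kb from its start site (KO/WT 0.284, 0.190 to 0.417). Dusp1, an early-response phosphatase of p38 and JNK kinases, had a KOIN-corrected peak at its promoter with HDL + CpG (3.16 tags in KO and 9.70 in WT cells) and with HDL (2.72 tags in KO and 9.49 in WT cells). Its highest-scoring KOIN-corrected peak lay 6.3 kb from the start site with HDL (6.51 tags in KO and 22.15 in WT cells).

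The kinases and docking proteins on the other side of the phosphatases had KOIN-corrected peaks as well. Of 25 tyrosine kinase genes, 13 had a standard and 11 a KOIN-corrected peak (18.2% and 12.1% of all genes). KOIN-corrected peaks overlapped 8 of 13 standard peaks with HDL + CpG, 8 of 17 with HDL and 4 of 8 in unstimulated cells, beside 29.7%, 54.9% and 20.7% of all standard peaks. Ptk2b, a focal adhesion-type kinase of macrophages, had 3.79 tags in KO and 16.37 in WT cells in its intron 4 with HDL + CpG (KO/WT 0.231, 0.131 to 0.389). Src, a kinase on which CD45 and CD148 act, had 5.30 tags in KO and 15.03 in WT cells in its intron 2 with HDL (KO/WT 0.353, 0.225 to 0.546). Of 29 adaptors and inhibitory receptors, 16 had a standard and 12 a KOIN-corrected peak. The standard peaks overlapped were 6 of 10 with HDL + CpG, 13 of 19 with HDL and 1 of 6 in unstimulated cells, beside the same shares of all standard peaks. Lair1, an inhibitory collagen receptor that recruits SHP-1, had 3.94 tags in KO and 18.98 in WT cells at its promoter with HDL (KO/WT 0.207, 0.127 to 0.329). Sirpa, the inhibitory receptor for CD47, had 4.54 tags in KO and 14.76 in WT cells 48.0 kb from its start site with HDL (KO/WT 0.308, 0.191 to 0.488).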

How the data were processed

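Reads were aligned to mm9 with Bowtie, peaks called with MACS and annotated with HOMER by the authors, with the versions MACS 1.4.2, HOMER 4.3, CASAVA 1.8 and Bowtie 0.12.8 in the submitters' processing notes (the methods name another MACS release). The deposited signal is the number of tags per peak, which the authors normalized to 10000000 reads. The deposited score is that of MACS and was used only for ranks and a filter. The authors' fold column and a list of barcodes were not used. All tags of the 16759 peaks were whole reads within 0.005 tags, and reads were recovered with the header totals. KO and WT reads were compared by a two-sided exact binomial test against the library totals, Benjamini-Hochberg adjusted over all standard peaks of the condition (threshold 0.05), with exact 95% intervals, which cover counting error only. Overlap meant at least 1 bp. Tests were checked on simulated data. The simulated reads were Poisson counts, with no choice of peaks on WT reads and no deficit of KO reads over most peaks. The check therefore does not cover either of these. The text gives all 10 genes, each site with a KOIN-corrected peak in full, and at most 4 genes per further list. Genes with values in the further lists are examples and not always those with the highest-scoring peaks. The members and lists were chosen with earlier results of these data known. Python 3.11.15, numpy 2.4.6, pandas 2.3.3, scipy 1.17.1 and matplotlib 3.10.9 were used.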

Additional observations from a re-analysis of the deposited data

Results flagged for a closer look

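The KO/WT ratio of the Ptpn1 -36.9 kb site differed between 2 conditions under the same genotype contrast. It was 2.06 times as high with HDL + CpG as with HDL (1.33 to 3.20, adjusted p = 0.00585, exact conditional test over all overlapping pairs), with 17.68 KO and 21.02 WT tags against 8.93 KO and 21.88 WT tags. Each value is 1 pooled library per genotype, and 35.8% of all overlapping pairs differed between these conditions, with a median ratio of 1.41. With each condition scaled by the median KO/WT of its removed standard peaks the ratio was 1.36 and the call was lost (adjusted p = 0.299, exact conditional test).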

How the results depend on the processing

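The overlap counts of phosphatase peaks were unchanged with an overlap of at least 50% and with centres within 100 kb of the start site. Peaks whose centre was annotated as a satellite, simple or low-complexity repeat were then left out. The counts were 2 of 3 (HDL + CpG), 4 of 4 (HDL) and 1 of 1 (unstimulated). Of all standard peaks off such repeats, 38.0%, 54.9% and 24.1% had a KOIN-corrected peak, in the same order. The HDL peak of Ptpn1 -36.9 kb stayed in, although it spans the CTCA repeat, because its centre lies outside the repeat. Left out with HDL were Ptpn1 -12.6 kb and Ptprj +1.2 kb, the latter centred on an annotated A-rich stretch. With a score of at least 60 in both lists the overlap counts came to 1 of 4 peaks with HDL + CpG, 0 of 3 with HDL and 1 of 2 in unstimulated cells. With HDL, Ptpn1 -36.9 kb scored 118.85 in the standard and 59.17 in the KOIN-corrected list, and Ptpn1 -7.1 kb 73.15 and 45.27. The share over all standard peaks was not taken under this filter, so these counts say nothing particular to the phosphatases. The count of peaks with fewer KO reads was 3 of 3 with HDL at a score of at least 60, again without a share over all peaks. With the expected share scaled to the removed standard peaks it was 2 of 5 with HDL + CpG, 3 of 6 with HDL and 0 of 3 in unstimulated cells. Under this scaling the ratio of Ptpn1 -12.6 kb with HDL turned to 1.09 (adjusted p = 0.788, exact binomial test), and 6 further peaks lost their call with the direction kept. Adding 1 tag left each ratio within its interval. Ratios between conditions were scaled in the same way, an alternative added after the data were seen. The ratio between HDL + CpG and HDL at Ptpn1 -36.9 kb then lost its call. That between HDL + CpG and unstimulated cells at Ptprj +37.8 kb was 0.44 and gained one (adjusted p = 0.0414, exact conditional test). The share of all pairs called was not taken under this scaling. Sites with a sequence match came to 1 of 7 within 50 bp and 3 of 7 in the whole peak. Counted per peak, 11.4% (HDL + CpG), 11.2% (HDL) and 6.91% (unstimulated) of all standard peaks held one within 50 bp. In the whole peak the shares were 31.5%, 33.0% and 24.5% in the same order. A site was counted if its peak in any condition held a match, so the site counts are not directly comparable with these shares. No paired analysis was possible because each group is 1 pooled library. Peaks of 51 to 188 reads in both libraries together limit each ratio to the intervals given.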
